A study of Oryctolagus cuniculus with 34 samples.

Results

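The comparison set rabbit supraspinatus muscles that had been injured and repaired, and left for the study's long term, against the uninjured supraspinatus muscle of the opposite shoulder of the same animal. The supraspinatus is a rotator cuff muscle that lifts the arm, and its tendon is the one most often torn. The pairs were found from the animal code and side that the submitters attached to each library, and 5 animals (36, 40, 44, 46 and 48) had both muscles, which made 10 of the 34 libraries of the series. The repaired muscles had the label repair only, meaning no gel was given, and the muscles of the other side had the label uninjured. For gauging spread, the long-term uninjured muscles of 5 other animals (41, 43, 45, 47 and 49) were also used, and their operated muscles, which had received a gel made from tissue extracellular matrix, served once as a comparison. The sources used here do not state the rabbits' strain, sex or age, the kind of injury, or how long the long term was. An uninjured muscle of an operated animal is not a muscle of an unoperated animal, so whatever the operation did to both shoulders is shared by the groups.

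After a rotator cuff tear the muscle belly commonly loses fibre mass and gains fat and fibrous tissue, and repair of the tendon often leaves part of this in place. Adipocytes and matrix-producing fibroblasts in injured muscle both arise largely from resident fibro-adipogenic progenitors, stromal cells that carry the receptor PDGFRA. Muscle fibres themselves differ in contractile proteins, from slow oxidative to fast glycolytic, and their composition varies along and between muscles. A piece of muscle sequenced in bulk reads all of these cells at once, and more cells of a type cannot be told apart from more RNA per cell.

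The 10 paired libraries held 12763571 to 15005207 counts each and detected 13702 to 14455 genes with 1 count or more. Muscle fibre markers were high throughout: ACTA1, skeletal alpha-actin, lay at 32560 to 60960 CPM (counts scaled to a common library size) in repaired muscle and at 49050 to 69640 in the 10 uninjured muscles, and TTN, CKM and DES were likewise abundant in every library. No 2 libraries of a group agreed within counting noise. In each paired fit the animal was a term of the model, so that the fitted log2 difference is repaired minus own uninjured muscle.

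Across 11246 genes that passed the count filter, 0 (0%) passed an adjusted p of 0.05 in edgeR's quasi-likelihood test with Benjamini-Hochberg adjustment. The smallest adjusted p was 0.365. At an unadjusted p under 0.05 there were 915 genes higher in repaired muscle (8.14%) and 607 lower (5.40%), 1522 in all. The total was 1892 without animal 36, 1915 without animal 40, 658 without animal 44, 760 without animal 46 and 1132 without animal 48. DESeq2 with the same design called 62 genes, 53 of them higher in repaired muscle, and limma voom called 0, with 1589 genes at an unadjusted p under 0.05. Without animal 40, edgeR called 2 genes, both higher in repaired muscle, C1H11orf63 (fitted log2 difference 6.13, adjusted p = 0.0224) and CYP26B1 (1.82, adjusted p = 0.0274), the second a retinoic acid hydroxylase. No gene below is therefore said to have changed, and the values are given animal by animal. For reference, 643 of all genes tested (5.72%) had the higher value on the repaired side in 5 of 5 animals and 687 (6.11%) the lower value, and the median fitted difference over all genes was 0.01.

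The animals differed in how far the repaired muscle stood from its own uninjured partner. In animal 40 only 88 genes differed at least 2-fold, 41 higher and 47 lower. Animal 48 had 324 such genes, animal 36 had 833, animal 46 had 887 and animal 44 had 1073. In every animal but 40 the genes higher in the repaired muscle outnumbered the lower ones. The counts were 524 against 309 in animal 36, 744 against 329 in animal 44, 814 against 73 in animal 46 and 199 against 125 in animal 48. As a measure of what 2 unrelated muscles differ by, the 45 pairs of uninjured muscles from different animals differed at least 2-fold in 301 to 1738 genes, with a median of 723. The repaired muscles of animals 40 and 48 were thus closer to their own uninjured muscle than the median pair of uninjured muscles was to one another, while those of animals 36, 44 and 46 were farther apart than that median and still inside the range.

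**Figure D1:**
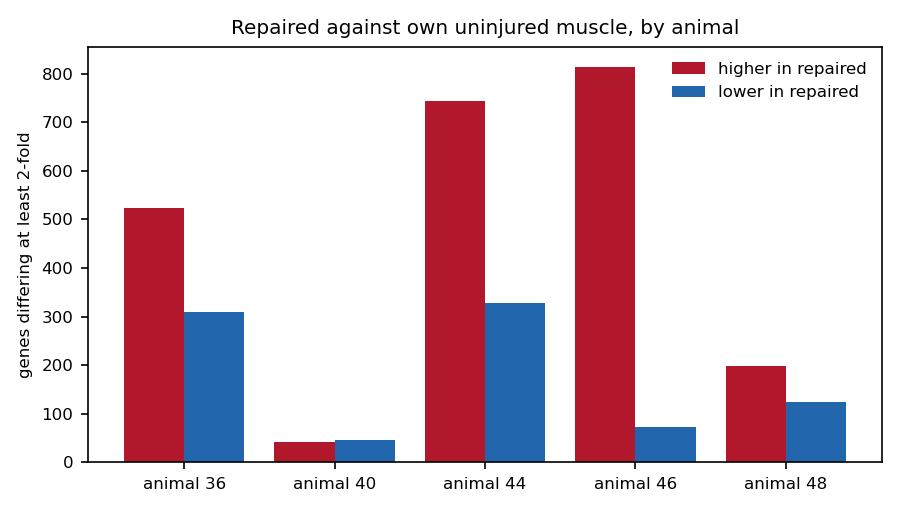
Number of genes (vertical axis) that differed at least 2-fold between the repaired and the own uninjured muscle, for each of the 5 animals, with red bars for genes higher and blue bars for genes lower in the repaired muscle. Animal 40 had 41 higher and 47 lower genes, and animals 44 and 46 had 744 and 814 higher genes.

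Own pairs were not always the nearest pairs. For animals 36, 40 and 48 the own uninjured muscle had the smallest spread of log2 differences to the repaired muscle among all 10 uninjured muscles. For animal 46 it ranked 5 of 10, and for animal 44 it ranked 6. The differences of animals 44 and 46 ran together across the 11246 genes (Pearson r = 0.63), those of 44 and 48 less so (0.43), and those of 46 and 48 less again (0.32). Animal 36 shared little with any other animal, with correlations between -0.22 (with animal 40) and 0.14 (with animal 44). These correlations run over genes, which are not independent replicates, and each animal's differences come from its own 2 libraries.

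Genes of fat cells were higher in the repaired muscle of most animals, to very different degrees. Of 20 listed adipocyte genes, 15 were in the files and 13 passed the count filter. Of these, 11 had a positive fitted difference, 4 were higher in 5 of 5 animals and 9 had an unadjusted p under 0.05. The list's median fitted log2 difference was 0.85, against 0.01 for all genes. By animal, the median log2 CPM difference over the 13 genes was 1.78 in animal 36, 0.10 in animal 40, 2.38 in animal 44, 0.85 in animal 46 and 0.40 in animal 48, so animals 36 and 44 carried the largest values and animal 40 almost none. The summed level of the listed genes was higher in the repaired than in the own uninjured muscle of all 5 animals, at 1562 to 2775 CPM against 1455 to 2024 CPM in the 10 uninjured muscles, ranges that overlap. LPL, GPD1 and CD36, which reached 1152, 769 and 340 CPM among the uninjured muscles, weigh heavily in this sum. GPD1 is also on the list of glycolytic genes. RETN was at 0 in all 15 of these libraries.

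LEP encodes leptin, the hormone that white fat cells release in proportion to their lipid stores. Its level in repaired muscle was 17.4 CPM in animal 36, 1.03 in animal 40, 5.31 in animal 44, 3.34 in animal 46 and 1.25 in animal 48, against 0.826, 0.739, 0.619, 0.374 and 0.779 CPM in the own uninjured muscles. All 5 repaired muscles lay above all 10 uninjured muscles, whose highest value was 0.826 CPM, but in animals 40 and 48 by little. The fitted log2 difference was 2.65 (SE 0.60, n = 5 pairs, edgeR adjusted p = 0.365), and LEP was the one tested adipocyte gene that did not reach the count filter's level in every own uninjured muscle. CIDEA, a protein of the lipid droplet surface, was at 104, 11.6, 99.3, 31.9 and 28.4 CPM in the repaired muscles of animals 36, 40, 44, 46 and 48 and at 14.2, 9.69, 8.32, 7.47 and 18.1 CPM in their uninjured muscles. Only animal 40 remained within the range of the 10 uninjured muscles (4.86 to 18.1 CPM). The fitted difference of CIDEA was 1.93 (SE 0.54, edgeR adjusted p = 0.365).

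PPARG, the transcription factor that drives adipocyte differentiation, was at 21.9, 3.89, 14.1, 5.50 and 3.33 CPM in repaired muscle and at 3.17, 2.71, 1.58, 3.21 and 4.52 CPM in own uninjured muscle, in the same order of animals. It was lower in the repaired muscle of animal 48 and within the uninjured range (1.58 to 4.52 CPM) there and in animal 40. FABP4, the fatty acid carrier of adipocytes, was at 364 CPM repaired and 74.1 CPM uninjured in animal 36, at 309 and 47.2 CPM in animal 44, at 113 and 62.6 CPM in animal 46 and at 87.4 and 69.6 CPM in animal 48, whereas animal 40 had 56.3 CPM repaired and 60.4 CPM uninjured. ADIPOQ, which encodes adiponectin, had a fitted difference of 0.85 (SE 0.29, edgeR adjusted p = 0.365) with the same 2 animals highest, at 453 and 324 CPM against at most 169 CPM in any uninjured muscle. CIDEC and CD36, a further lipid droplet protein and a fatty acid receptor that muscle fibres and endothelium also carry, had fitted differences of 1.85 and 0.54.

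RBP4, the carrier of retinol in blood and a product of fat, was higher in 5 of 5 repaired muscles, at 22.8, 6.36, 14.8, 8.03 and 9.41 CPM against 15.1, 3.61, 2.54, 2.02 and 3.04 CPM, with a fitted difference of 1.46 (SE 0.30, edgeR adjusted p = 0.365). All 5 repaired values nevertheless lay inside the range of the 10 uninjured muscles, 2.02 to 28.0 CPM. The uninjured muscles of the 5 repair animals were lower in RBP4 than those of the other 5 animals by 1.68 on the log2 scale, and 4 of the 5 own uninjured values lay under the median of the 10, 10.8 CPM.

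Enzymes of lipid synthesis and breakdown gave a mixed list. Of 22 listed genes 17 were tested, 12 were higher and 5 lower, and 6 higher and 1 lower had an unadjusted p under 0.05, with a median of 0.24. THRSP, a lipogenic regulator responsive to thyroid hormone, was at 42.3, 3.18, 34.2, 12.7 and 5.08 CPM in repaired muscle against 3.51, 2.63, 3.02, 3.14 and 5.84 CPM (fitted difference 1.99, SE 0.67, edgeR adjusted p = 0.365). Animals 36 and 44 were again highest, and animal 48 was lower than its own uninjured muscle. PLIN2, which coats lipid droplets in most cells, was higher in 5 of 5 animals by a small amount, 0.36 (SE 0.11), with all 5 repaired values inside the uninjured range of 13.1 to 35.5 CPM. ME1, the cytosolic malic enzyme that supplies NADPH for fatty acid synthesis, was lower in 5 of 5, at 64.5, 114, 51.9, 118 and 126 CPM against 78.1, 118, 238, 195 and 202 CPM (fitted difference -0.77, SE 0.30, edgeR adjusted p = 0.366).

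**Figure D2:**
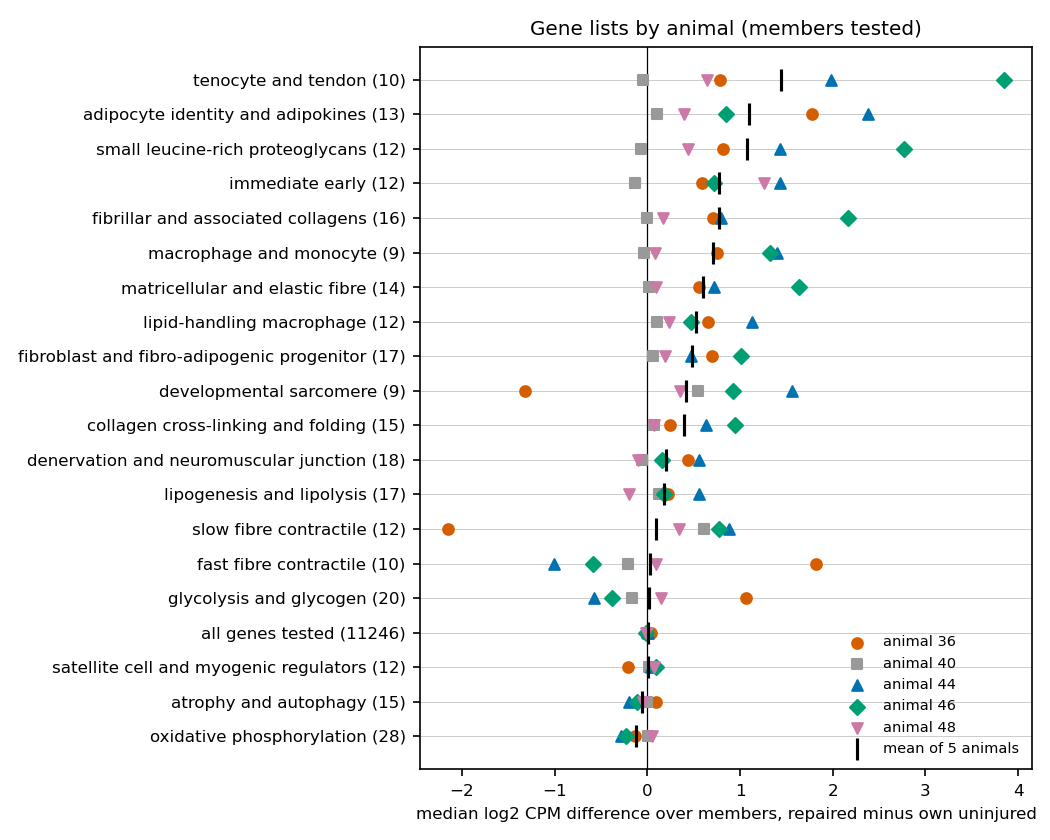
Median log2 CPM difference, repaired minus own uninjured muscle, over the tested members of each gene list (number of members in brackets), with 1 symbol for each of the 5 animals and a bar at their mean. Animal 46 lies farthest right for the tendon, proteoglycan and collagen lists (3.85, 2.77 and 2.17), animals 36 and 44 for the adipocyte list (1.78 and 2.38), and animal 36 lies apart for the fibre lists (-2.15 slow, 1.82 fast).

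Genes of tendon and of the small leucine-rich proteoglycans, which bind collagen fibrils and set their diameter, had positive medians in every animal but 40. Of 15 listed tenocyte and tendon genes 12 were in the files, 10 were tested, all 10 had a positive fitted difference, 4 were higher in 5 of 5 animals and 6 had an unadjusted p under 0.05. The median fitted difference was 1.33, and by animal the median was 0.78 in animal 36, -0.05 in animal 40, 1.98 in animal 44, 3.85 in animal 46 and 0.64 in animal 48. Without animal 46 the list's median was 0.87. Of the 13 proteoglycans 12 were tested and all 12 were higher, 8 at an unadjusted p under 0.05, with a median of 1.21, or 0.71 without animal 46. In each of these lists 3 members, FMOD and KERA among them, did not reach the count filter's level in every own uninjured muscle and were tested through their high values in repaired muscle, so the counts describe the members that passed and not the whole lists. The lists also share members and are not independent. FMOD, KERA and CHAD are on both. The tendon list shares COL12A1 and COL14A1 with the collagen list, TNC with the matricellular list and EGR1 with the immediate early list.

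FMOD encodes fibromodulin, a collagen-binding proteoglycan abundant in tendon. Its level in repaired muscle was 22.7, 1.19, 13.9, 236 and 21.0 CPM in animals 36, 40, 44, 46 and 48, against 9.77, 0.821, 0.619, 3.36 and 4.75 CPM in own uninjured muscle. The repaired muscle was higher in 5 of 5 animals, and outside the range of the 10 uninjured muscles (0.619 to 12.4 CPM) in all but animal 40 (fitted difference 3.03, SE 0.89, edgeR adjusted p = 0.365). KERA, keratocan, a related proteoglycan, was at 7.67, 0.477, 2.35, 22.9 and 7.33 CPM against 2.34, 0.821, 0.687, 1.27 and 1.01 CPM. It was lower in the repaired muscle of animal 40 alone, and there below all 10 uninjured muscles (fitted difference 2.31, SE 0.58, edgeR adjusted p = 0.365). CHAD, chondroadherin, a cartilage and tendon matrix protein, reached 47.4 CPM in animal 46 against 2.54 CPM on its uninjured side and was at 1.83 to 6.90 CPM in the other 4 repaired muscles. Animals 36 (6.90 CPM) and 44 (6.12 CPM) also lay above all 10 uninjured muscles, at most 5.44 CPM. Animal 40 alone was lower than its own uninjured muscle (fitted difference 1.48, SE 0.69, edgeR adjusted p = 0.397). TNMD, tenomodulin, the usual marker of mature tenocytes, and MKX, a tendon transcription factor, fell under the count filter, with highest values of 8.25 and 3.94 CPM among repaired and 0.622 and 0.551 CPM among the 10 uninjured muscles.

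DCN and LUM differed less than the proteoglycan list's median of 1.21. DCN, decorin, was at 800, 365, 381, 520 and 467 CPM repaired and 448, 392, 349, 159 and 319 CPM uninjured, a fitted difference of 0.62 (SE 0.25, edgeR adjusted p = 0.366). LUM, lumican, was higher in 5 of 5 by 0.60 (SE 0.18), but only animal 36 exceeded the highest uninjured muscle. PRELP, which anchors basement membranes to connective tissue, was at 301 CPM in animal 46 against 19.7 CPM uninjured, while the other 4 repaired muscles lay between 38.1 and 75.2 CPM. It was higher in 5 of 5 animals (1.24, SE 0.56, edgeR adjusted p = 0.392). The repaired muscles of animals 36, 44 and 46 lay above all 10 uninjured muscles, whose highest value was 52.65 CPM.

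All 16 listed fibrillar and associated collagens were tested and all 16 had a positive fitted difference, 4 of them in 5 of 5 animals and 7 at an unadjusted p under 0.05. The median was 0.78, and 0.47 without animal 46, where 15 of 16 remained positive. COL8A2, COL11A1 and COL24A1 did not reach the count filter's level in every own uninjured muscle and passed with the help of repaired values. COL1A1, the main chain of type I collagen, was at 373, 92.8, 267, 801 and 185 CPM in repaired muscle of animals 36, 40, 44, 46 and 48 and at 188, 103, 105, 59.9 and 139 CPM in uninjured muscle. Animal 46 had the lowest own uninjured and the highest repaired value, animal 40 was lower in the repaired muscle, and the fitted difference was 1.19 (SE 0.56, edgeR adjusted p = 0.397). COL3A1, the collagen of loose and early scar matrix, was at 828, 225, 540, 342 and 311 CPM against 425, 226, 286, 102 and 260 CPM (0.78, SE 0.25, edgeR adjusted p = 0.365), and only animal 36 lay above the highest uninjured muscle, 612 CPM. COL12A1, a fibril-associated collagen of tendon and fascia, was higher in 5 of 5 animals, at 21.9, 4.77, 14.7, 51.8 and 6.58 CPM against 9.43, 4.11, 3.09, 2.92 and 5.53 CPM (1.61, SE 0.61, edgeR adjusted p = 0.366).

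Enzymes that fold and cross-link collagen were higher above all in animals 44 and 46, with list medians of 0.24, 0.08, 0.64, 0.94 and 0.07 in animals 36, 40, 44, 46 and 48. Of 15 tested members 13 were higher, 4 in 5 of 5 animals, and 7 had an unadjusted p under 0.05, with a median of 0.50. LOX, lysyl oxidase, which starts the cross-links between collagen chains, was at 28.4, 6.6, 10.9, 26 and 14.5 CPM against 10.2, 8.54, 4.61, 4.56 and 5.84 CPM. Its 4 higher animals all lay above every uninjured muscle, and animal 40 was lower than its own partner (fitted difference 1.26, SE 0.37, edgeR adjusted p = 0.365). LOXL2 and PCOLCE2, a further lysyl oxidase and an enhancer of procollagen processing, were higher in 5 of 5 by 1.07 (SE 0.41) and 0.69 (SE 0.17).

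All 14 tested matricellular and elastic fibre genes had a positive fitted difference, with a median of 0.68 and 5 at an unadjusted p under 0.05. Without animal 46 the median was 0.35 and 13 of 14 were positive. MFAP4, a microfibril-associated glycoprotein, was at 76.8, 12.3, 54.1, 83.8 and 21.9 CPM against 25.7, 11.8, 9.35, 8.97 and 12.2 CPM (1.67, SE 0.47, edgeR adjusted p = 0.365). POSTN, periostin, secreted by activated fibroblasts, was higher in 5 of 5, but in animals 40 and 48 only from 7.63 to 8.03 and from 10.6 to 11.2 CPM (1.09, SE 0.50, edgeR adjusted p = 0.394). TGFB1, which encodes the profibrotic cytokine TGF-beta 1, was at 4.45 to 5.78 CPM in repaired and 2.64 to 6.61 CPM in the 10 uninjured muscles, and was higher in 3 animals and lower in 2 (0.27, SE 0.24, edgeR adjusted p = 0.607).

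Markers of fibroblasts and fibro-adipogenic progenitors were higher by smaller amounts and more evenly. All 17 tested members of 20 listed had a positive fitted difference, 6 in 5 of 5 animals and 9 at an unadjusted p under 0.05, with a median of 0.47. The list's median was 0.69, 0.06, 0.47, 1.02 and 0.19 in animals 36, 40, 44, 46 and 48. PI16, OSR1 and ADAM12 did not reach the count filter's level in every own uninjured muscle and passed with the help of repaired values. DCN and LUM are also on the proteoglycan list. PDGFRA was at 36, 16.3, 20.1, 16.5 and 12.6 CPM in repaired and at 20.2, 15.5, 16.0, 8.60 and 11.3 CPM in own uninjured muscle, higher in 5 of 5 animals by 0.47 (SE 0.15, edgeR adjusted p = 0.365). FAP, fibroblast activation protein, was at 9.54, 3.34, 6.32, 6.84 and 4.83 CPM against 5.85, 2.96, 4.19, 2.47 and 2.88 CPM (0.74, SE 0.19, edgeR adjusted p = 0.365). The own uninjured muscle of animal 46 was the lowest of the 5 for PDGFRA, FAP, COL1A1, COL3A1 and DCN, and its repaired muscle was not the highest for PDGFRA, FAP, COL3A1 or DCN.

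**Figure D3:**
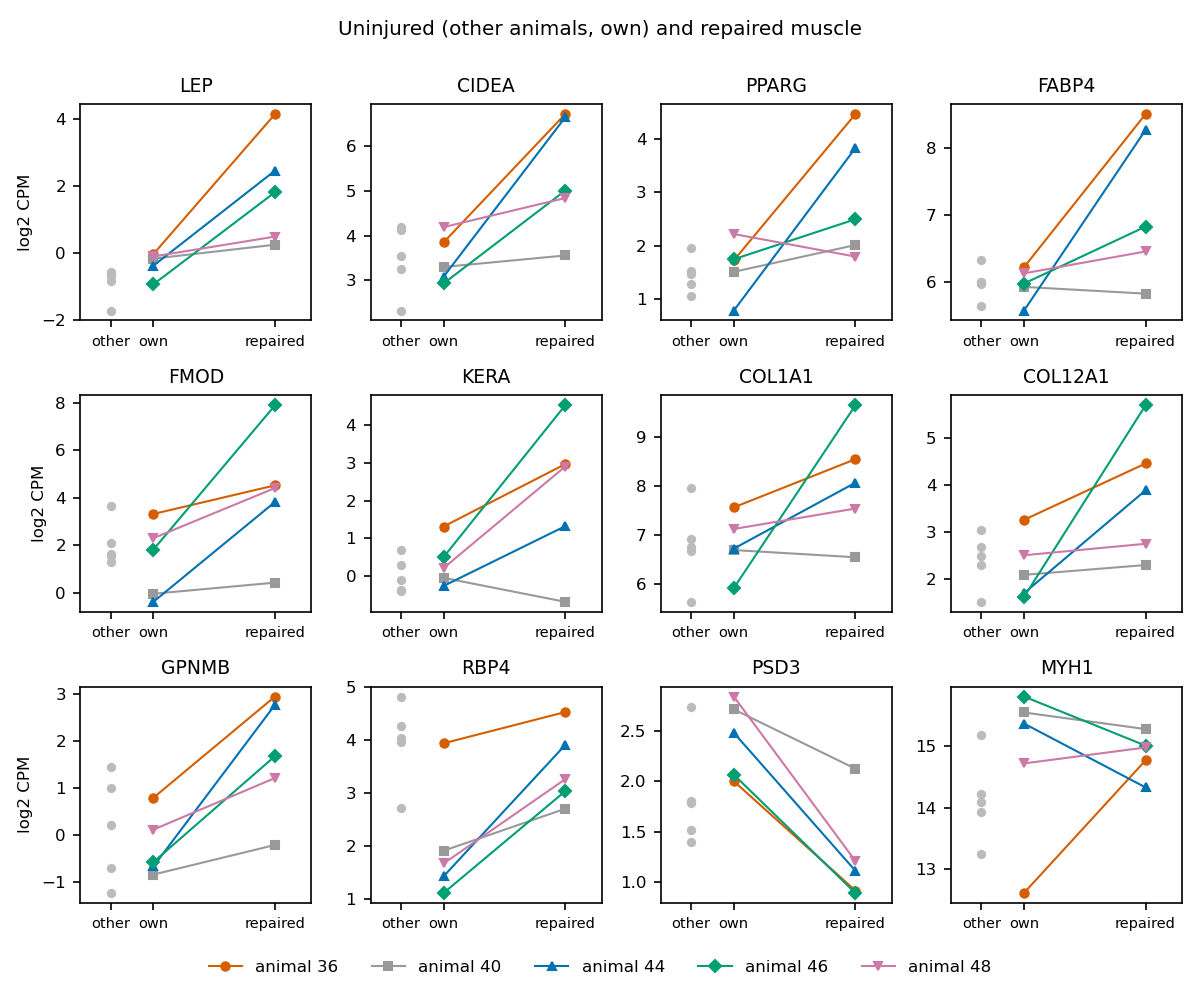
Log2 CPM (vertical axis, log scale) of 12 genes in the 5 uninjured muscles of other animals (grey points), and in the own uninjured and the repaired muscle of the 5 repair animals, joined by a line per animal. LEP lies above all uninjured muscles in all 5 animals, PSD3 lies below its partner in all 5, and MYH1 is lowest in the uninjured muscle of animal 36 (6268 CPM).

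Macrophage genes were present at low levels. Of 17 listed markers 14 were in the files and 9 were tested, of which 4 reached the count filter's level in every own uninjured muscle. All 9 had a positive fitted difference, 3 in 5 of 5 animals and 6 at an unadjusted p under 0.05, with a median of 0.79. The summed level exceeded the own uninjured one in 5 of 5 animals, from 14.9 to 63.1 CPM against 7.55 to 32.6 CPM in the 10 uninjured muscles, and ADGRE1 was at 0 in all of these libraries. CD68, a lysosomal protein of macrophages, was at 4.00, 2.70, 5.11, 1.71 and 3.00 CPM in repaired and at 2.34, 1.64, 1.38, 1.27 and 1.64 CPM in own uninjured muscle. It exceeded all 10 uninjured muscles (at most 2.44 CPM) except in animal 46 (0.96, SE 0.24, edgeR adjusted p = 0.365). CSF1R, the receptor for the macrophage growth factor, was higher in 5 of 5 by 0.77 (SE 0.27), yet only animal 36, at 14.8 CPM, was outside the uninjured range.

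Among genes of macrophages that take up lipid, 10 of 12 tested were higher, 4 in 5 of 5 animals. The list shares LPL with the adipocyte list and PLIN2 with the list of lipid synthesis and breakdown. SPP1 and GPNMB did not reach the count filter's level in every own uninjured muscle and were tested through their higher repaired values, and TREM2, a lipid receptor of such cells, fell under the filter, with at most 1.28 CPM in repaired and 0.340 CPM in the 10 uninjured muscles. GPNMB, a transmembrane glycoprotein of such cells, was at 7.54, 0.715, 6.66, 3.05 and 2.17 CPM against 1.58, 0.410, 0.481, 0.523 and 0.934 CPM, with a fitted difference of 2.25 (SE 0.39, edgeR adjusted p = 0.365). In animals 40 and 48 the repaired value lay inside the GPNMB range of the 10 uninjured muscles, 0.278 to 2.57 CPM. SPP1, osteopontin, made by macrophages and by bone and injured muscle cells, reached 13.8 CPM in animal 46, 4.32 in animal 36 and 4.10 in animal 44, and in animals 40 and 48 stayed within the uninjured range of 0.0747 to 1.79 CPM. The low levels of both genes in uninjured muscle make their ratios imprecise.

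Contractile genes showed no common direction. For slow fibre genes animal 36 ran opposite to the other 4 animals, and for fast fibre genes animals 36 and 48 had positive medians and the others negative ones. The 10 tested fast fibre genes had a median fitted difference of -0.01, with 5 higher and 5 lower, 0 in 5 of 5 animals and 0 at an unadjusted p under 0.05. By animal the medians were 1.82 in animal 36, -0.21 in animal 40, -1.01 in animal 44, -0.58 in animal 46 and 0.09 in animal 48. The 12 tested slow fibre genes had medians of -2.15 in animal 36 and 0.61, 0.88, 0.77 and 0.34 in animals 40, 44, 46 and 48. Without animal 36 all 10 fast genes had a negative fitted difference, with a median of -0.40, and 11 of 12 slow genes a positive one, with a median of 0.64. Over all 5 animals 9 of 12 slow genes were positive with a median of 0.13, and 6 of 12 were without animal 40, 44 or 46. Without animal 44, 9 of 10 fast genes had a positive fitted difference.

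In animal 36 the uninjured muscle lay at the edge of the uninjured range. The summed fast fibre genes were at 24920 CPM there, the lowest of the 10 uninjured muscles, which reached 147100, and its slow fibre sum of 51770 CPM was the highest of the 10, the lowest being 24400. Its repaired muscle held 81710 CPM of fast fibre genes, inside the uninjured range, and 21500 CPM of slow fibre genes, under the lowest uninjured muscle. The repaired muscles of all 5 animals held 54850 to 105300 CPM of fast and 21500 to 34370 CPM of slow fibre genes. MYH1, the myosin heavy chain of fast 2X fibres, was at 27910, 39690, 20630, 33100 and 32210 CPM in repaired muscle and at 6268, 48000, 42360, 57420 and 27000 CPM in uninjured muscle. MYH4, the heavy chain of 2B fibres, was at 20.1 CPM in the uninjured muscle of animal 36 and at 113 to 304 CPM in the other 4. The place in the muscle from which a sample was cut is not stated, and its part in these values was not tested. Glycolytic genes had medians of 1.06, -0.16, -0.57, -0.39 and 0.15 in animals 36, 40, 44, 46 and 48.

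Developmental sarcomere genes, which fibres use before birth and during regeneration, were tested for 9 of 11 listed, and 7 were higher with a median of 0.55, or 0.21 without animal 44, 0.32 without animal 48 and 0.90 without animal 36. MYH3, embryonic myosin, was at 206, 130, 358, 297 and 227 CPM repaired against 85.3, 170, 180, 156 and 242 CPM uninjured, higher in 3 animals (0.55, SE 0.26, edgeR adjusted p = 0.399). The list also shares TNNC1 with the slow fibre list. Satellite cell and myogenic regulators had 6 genes higher and 6 lower with a median of 0.02, which ranged from -0.01 (without animal 46) to 0.04 (without animal 36). PAX7, the transcription factor of muscle stem cells, was at 2.17 to 3.02 CPM in repaired muscle, and its one large difference was in animal 36, where the uninjured muscle held 6.26 CPM, the highest of the 10 (fitted difference -0.27, SE 0.27, edgeR adjusted p = 0.652). MYOG, which drives fibre differentiation and responds to denervation, was at 32.0, 17.5, 26.4, 14.9 and 18.8 CPM against 23.1, 16.5, 15.7, 17.0 and 12.8 CPM (0.34, SE 0.14, edgeR adjusted p = 0.366).

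Genes of muscle wasting differed by small amounts, more of them with lower than with higher fitted values in repaired muscle. Of 15 tested genes of atrophy and autophagy 12 had a negative and 3 a positive fitted difference, with a median of -0.13, or -0.07 without animal 44, and 2 lower at an unadjusted p under 0.05. The list median of animal 36 alone was positive, at 0.10. FBXO30, a further ubiquitin ligase of wasting muscle, was higher in 5 of 5 animals by 0.22 (SE 0.10). FBXO32, the atrophy ubiquitin ligase atrogin-1, was at 439, 1040, 474, 1015 and 1079 CPM in repaired and at 411, 1072, 1178, 1333 and 1313 CPM in uninjured muscle (-0.38, SE 0.20, edgeR adjusted p = 0.420). TRIM63, its companion MuRF1, was lower in 4 of 5 animals by little (-0.15, SE 0.09, edgeR adjusted p = 0.470). FBXO40, a muscle ligase that targets IRS1, was lower in 5 of 5, at 629, 1153, 818, 732 and 941 CPM against 1072, 1199, 1137, 1157 and 1020 CPM. The repaired muscles of animals 36, 44 and 46 lay below all 10 uninjured muscles, at least 925 CPM (-0.41, SE 0.15, edgeR adjusted p = 0.365).

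Among 18 tested genes of denervation and the neuromuscular junction 11 were higher and 7 lower, with a median of 0.13. Without animal 48 the median was 0.21 with 14 of 18 higher, and without animal 46, 10 of 18 were higher. CHRNB1, the beta subunit of the muscle acetylcholine receptor, was at 51.5, 49.9, 59.6, 45.7 and 48.7 CPM against 36.1, 43.6, 37.3, 42.4 and 39.2 CPM, so that the repaired values all exceeded the 5 own uninjured ones (0.36, SE 0.10, edgeR adjusted p = 0.365). Animal 46 lay inside the CHRNB1 range of the 10 uninjured muscles, 27.4 to 46.2 CPM. CHRNG, the fetal gamma subunit, was higher in 5 of 5 by 0.90 (SE 0.29), with all repaired values, 1.75 to 7.87 CPM, inside the range of the 10 uninjured muscles, 0.897 to 10.5 CPM. Against all 10 uninjured muscles, with no pairing, its difference was -0.10. CHRNA1, the alpha subunit, had a fitted difference of -0.01 (SE 0.16).

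Oxidative phosphorylation genes were slightly lower, 24 of 28 with a negative fitted difference and a median of -0.11, though in animals 40 and 48 the median was 0.01 and 0.05. The cytochrome c oxidase subunits COX6C, COX5B and COX7A1, were lower in 5 of 5 animals (-0.93, -0.36 and -0.31), named after their values were seen. PPARGC1A, the coactivator that drives mitochondrial biogenesis, was at 25.3, 46.6, 25.8, 87.5 and 33.6 CPM repaired against 56.9, 43.7, 40.2, 113 and 45 CPM uninjured (-0.50, SE 0.17, edgeR adjusted p = 0.365).

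Among genes of mean log2 CPM of at least 1, those given here for a small p and a common direction in 5 of 5 animals were, on the higher side, PAQR9, RGS2, STRIP2, SCPEP1, SORBS2, UST, EHD3 and SELENBP1. PAQR9, a membrane receptor family member, was at 65.2, 16.9, 54.5, 22.0 and 33.5 CPM against 41.7, 13.9, 25.9, 11 and 21.3 CPM (0.74, SE 0.13, edgeR adjusted p = 0.365). The repaired values of animals 36 and 44 lay above all 10 uninjured muscles and the other 3 within their range. RGS2, which shuts off Gq-coupled receptor signals, was at 15.1, 4.85, 10.6, 7.88 and 6.58 CPM against 4.75, 3.86, 3.30, 4.34 and 2.96 CPM (1.16, SE 0.21, edgeR adjusted p = 0.365). SORBS2, an adaptor of the cytoskeleton at the Z-disc, had a fitted difference of 1.22 (SE 0.23), and the other 5 genes ones of 0.47 to 0.69. Genes under that level were left out of this choice, among them GPNMB and PLEKHD1, which had the smallest p of all in edgeR's test (1.74, SE 0.27, adjusted p = 0.365).

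On the lower side the genes given here were PSD3, RPL17, RORA, ZNF318, CUL5, PRKAA2 and RC3H1. PSD3, an exchange factor for the small GTPase ARF6, was at 1.74, 4.21, 2.02, 1.71 and 2.17 CPM in repaired and at 3.85, 6.40, 5.43, 4.04 and 7.01 CPM in uninjured muscle. In all animals but 40 the repaired muscle was below the lowest of the 10 uninjured, 2.49 CPM (-1.20, SE 0.19, edgeR adjusted p = 0.365). PRKAA2, the catalytic alpha-2 subunit of the energy sensor AMPK, was at 17.3, 43.5, 32.1, 29.9 and 17.8 CPM against 20.5, 53.0, 55.8, 54.6 and 41.8 CPM (-0.68, SE 0.15, edgeR adjusted p = 0.365). RPL17, a ribosomal protein gene whose reads may be shared with near-identical copies, was at 0.556 and 1.23 CPM in the 2 muscles of animal 40 and at 18.1 to 29.9 CPM in those of the other 4 animals.

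**Figure D4:**
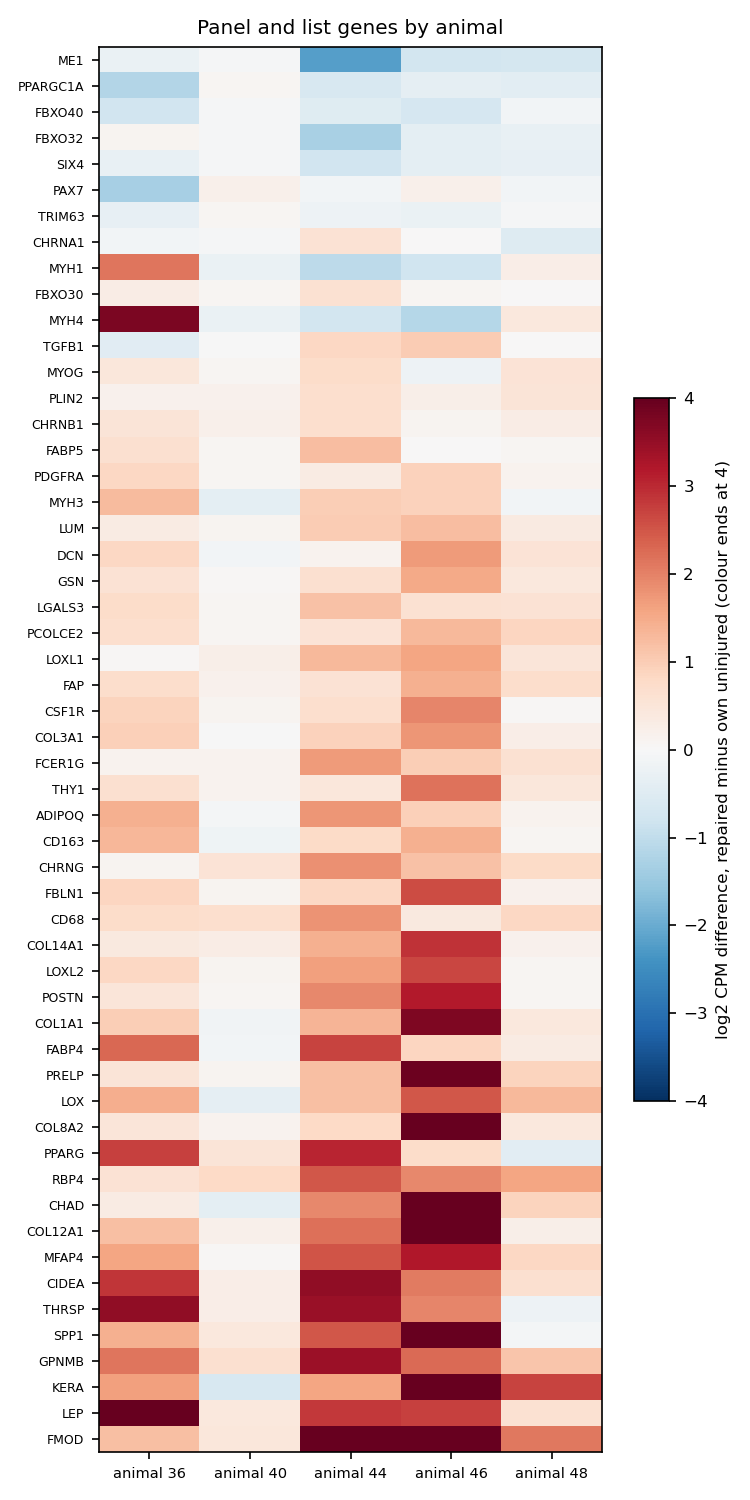
Log2 CPM difference, repaired minus own uninjured muscle, of 54 genes taken from the panel and the lists (rows, ordered by fitted difference) in the 5 animals (columns), with red for higher and blue for lower in the repaired muscle. The column of animal 40 is pale throughout, between -0.63 and 0.79, and the darkest cells are in animals 36, 44 and 46, such as LEP in animal 36 (4.17) and FMOD in animal 46 (6.07).

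Few genes separated the repaired muscles from every uninjured muscle. All 5 repaired values lay above all 10 uninjured values for 10 genes (0.0889%) and below them for 7 (0.0622%). Apart from LEP, the higher ones, named after their values were seen, included TSPYL2, RBM23, PI4KB, TRABD2B, AOX3, PTCHD1, FAM234A and SAMD4B. Most of these were separated by small, even differences: TSPYL2, a nucleosome assembly family member, was at 17.9 to 28.1 CPM repaired and 13.8 to 17.2 CPM uninjured (0.53, SE 0.12, edgeR adjusted p = 0.365). TRABD2B, a metalloprotease that inactivates Wnt proteins, was at 2.83 to 15.9 CPM against 1.40 to 2.65 CPM (1.47, SE 0.42, edgeR adjusted p = 0.365). Among the lower ones CDC16, a subunit of the anaphase-promoting complex, was at 24.6 to 30.4 CPM against 30.6 to 38 CPM (-0.29, SE 0.07, edgeR adjusted p = 0.365).

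Markers of other cells that a piece of muscle can hold were followed as whole lists. Endothelial genes (11 of 13 tested, 7 higher) had a median of 0.03 and summed to 530 to 583 CPM in repaired and 501 to 667 CPM in uninjured muscle. Pericyte and smooth muscle genes (10 of 11 tested, 5 higher) had a median of 0.00, and both medians took either sign as single animals were left out. Lymphocyte markers were near 0: 2 of 18 passed the filter, CD3G was at 0 in all of these libraries, and the sums were 8.26 to 13.5 CPM repaired against 5.31 to 10.8 CPM. Neutrophil and mast cell markers summed to 3.16 to 4.84 CPM against 3.12 to 7.18 CPM. Schwann cell genes were higher for 11 of 12 tested with a median of 0.17, but for 6 of 12 without animal 36, where the median was -0.00127, and without animal 48 the median was 0.39. CDH19, an adhesion molecule of that lineage, had a fitted difference of 1.58 (SE 0.39). Cartilage and bone markers summed to 18.9 to 99.7 CPM against 14.3 to 28.5 CPM, with BGLAP and MEPE at 0, and their median was 1.78 in animal 46 and at most 0.41 in the other 4. The part of such tissue in the collagen and tendon values of animal 46 was not tested.

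The operated muscles that had also received the gel gave a second set of 5 within-animal differences, from other animals. Over 11625 genes, 0 (0%) differed between the change after repair and the change after repair with gel in edgeR's quasi-likelihood test with Benjamini-Hochberg adjustment (smallest adjusted p = 0.671, 721 genes at an unadjusted p under 0.05, and 247 to 1642 as single pairs were left out), and DESeq2 and limma voom also called 0, with 856 and 3101 genes at an unadjusted p under 0.05. Of the gel animals, 41 stood apart with 4697 genes at least 2-fold from its own uninjured muscle, against 455 to 799 in the other 4, and without it the count was again 0 (smallest adjusted p = 0.552). The tendon list had medians of 0.53, -0.41, 0.44, -1.26 and 0.74 in gel animals 41, 43, 45, 47 and 49, with a mean of 0.01, against 1.44 after repair only. The adipocyte list had medians of 0.78, 0.52, -0.13, -0.03 and 0.70. LEP was higher in 4 of 5 gel animals, by a mean of 1.47 on the log2 CPM scale, against 2.15 after repair only, and the fitted difference between the changes was 0.69 (edgeR adjusted p = 0.801). For FMOD the corresponding fitted difference was 2.78 and for RBP4 2.22 (edgeR adjusted p = 0.671 for both), so none of these values was shown to differ between the treatments.

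The uninjured muscles of the 5 repair animals were also set against those of the 5 gel animals. Over 11228 genes, 0 (0%) differed in edgeR's quasi-likelihood test with Benjamini-Hochberg adjustment (smallest adjusted p = 0.429, 745 genes at an unadjusted p under 0.05). DESeq2 called 5 (SH3RF3, SV2B, TMEM60 and LOC103347982 among them) and limma voom with sample weights called 183, and without the uninjured muscle of animal 36 edgeR called 9, RBP4 among them (-2.61, adjusted p = 0.0493). Without that of animal 44 it called 1, GRIN2C (-4.83, adjusted p = 0.0105).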

How the data were processed

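Bulk RNA of rabbit supraspinatus muscle was sequenced, and the authors deposited 1 table of raw counts per gene and library. The submitters' processing notes name STAR, edgeR and OryCun2.0. Whether counting used strand is not stated, so reads of overlapping and antisense genes cannot be told apart. Each table held 18210 entries, and repeated symbols were summed to 18202 genes. Of 3500 LOC identifiers, 578 were given a RefSeq symbol by gene number (assembly mOryCun1.1, names only). Only the 20 long-term libraries were read (12593821 to 15033385 counts), and the 14 short-term ones were not used.

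The edgeR 4.0.16 quasi-likelihood test (R 4.3.3, TMM scaling, default count filter with a minimum of 10, robust, Benjamini-Hochberg adjustment over all genes tested, threshold 0.05, 2-sided) was fitted to the 10 paired libraries with the animal as a block. SE is the fitted difference divided by the square root of its F statistic. The level in each library is CPM with TMM scaling, and log2 CPM uses a prior count of 2. The pairs come from animal codes: deviations of the 2 muscles of an animal from their group means correlated at 0.32, 0.40, 0.04, 0.39 and 0.43 over genes in animals 36, 40, 44, 46 and 48, and the repaired muscle of animal 44 correlated better, at 0.41, with the uninjured muscle of another animal. The labels do not state separate animals in words, and p-values measure the spread between these pairs. Named genes were a panel of 32 (28 tested), the 8 smallest p in each direction among genes of mean log2 CPM of at least 1 with one sign in 5 of 5 animals, and, in each main list and direction, at most 3 members with one sign in 5 of 5 animals and mean log2 CPM of at least 0, taken by size, which made 70. Main lists did not include the Schwann cell, immediate early, core clock or oxidative phosphorylation lists, among others. Further genes in the text, such as CDH19, FOS, ARNTL, BHLHE41 and CIART, fall outside these rules. The members, lists and rules were chosen with earlier results of these data known, and lists were described by counts and medians without a test. Panel genes under the filter are not given unless stated. Alternatives were DESeq2 1.42.0, limma 3.58.1 voom (with sample weights, and with the animal as a random effect), RLE scaling, no count filter, no block, all 20 libraries and leaving out each pair. The test was checked on simulated counts in which a gene had the same baseline mean in all animals, a setting that differs from these data. Some genes that met these rules are not reported here.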

Additional observations from a re-analysis of the deposited data

Results flagged for a closer look

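The 114 sets looked at were the 5 within-animal differences of each named gene and list, and the summed levels of some lists in the 10 uninjured muscles. Of these, 9 held 1 animal far from the rest, measured as the gap to its nearest neighbour over the whole range. All 9 were sets of 5 within-animal differences. Chance alone flags about 1 set in 20. Animal 46 stood apart with the highest log2 difference for COL8A2, a collagen of endothelial and corneal matrix (4.92), for PRELP (3.92), for THY1, a surface marker of fibroblasts (2.18), and for the cartilage and bone list (median 1.78). In its uninjured muscle COL8A2 was at 0.149 CPM, the lowest of the 10. Animal 36 stood apart with the lowest value for the slow fibre list (-2.15), the satellite cell list (-0.21) and PAX7 (-1.34), and its uninjured muscle is the one with the highest slow fibre sum and the highest PAX7 level of the 10. Animal 40 was lowest for RPL17 (-0.97), at levels of 0.556 and 1.23 CPM, and for the lymphocyte list (-0.20), which rests on 2 tested genes. The cause of these values was not tested.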

How the results depend on the processing

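For repair against own uninjured muscle, DESeq2 called 62 genes (53 higher, 9 lower), and edgeR without the replicate block against all 10 uninjured muscles called 35 (34 higher, 1 lower). These shared 13 genes, 21.0% of the first and 37.1% of the second. The same 10 libraries with no replicate block, all 20 libraries, RLE scaling, no count filter and both limma fits called 0, and leaving out each pair gave 0 to 2. For the uninjured muscles of repair against gel animals, DESeq2 called 5, limma voom 183, and leaving out each muscle gave 0 to 9. The comparison with gel called 0 in every alternative run, the fit of operated muscles without a block included. Of 908 values of named genes under these alternatives 882 kept direction and call, 17 came to pass the threshold (GPNMB, KERA, LEP, LOX, PAQR9, PRKAA2, PSD3, RBP4, RGS2, SELENBP1, SORBS2 and STRIP2 with DESeq2; CIDEA, KERA, LEP, MFAP4 and THRSP without the block) and 9 changed sign, in 5 genes. CHRNG was -0.10 without the block against all 10 uninjured muscles, and MYH1 was -0.0252 with voom and -0.23 without the block in the same 10 libraries. Leaving out pairs gave -0.18 to 0.12 for CHRNA1, -0.46 to 0.29 for MYH1, -0.42 to 0.61 for MYH4 and -0.388 to 0.0507 for PAX7. Of 494 list medians 492 moved by less than 1 SD between animals. This is a lenient measure, as leaving out a pair could hardly exceed an SD set by the same animals. The fast fibre list counted as unmoved (SD 1.09), though its median went from -0.01 to -0.40 without animal 36. Interferon response (-0.29 without the block) and cell cycle (-0.02 without the filter) moved by more than 1 SD. The cause was not tested. Genes under about 1 CPM rest on few reads, so their ratios are imprecise.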

Other observations

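Immediate early genes, which cells switch on within minutes of a stimulus or of tissue handling, were higher in repaired muscle as a list. Of 12 tested, 12 had a positive fitted difference, 6 at an unadjusted p under 0.05, with a median of 0.95, and by animal the median was 0.59, -0.13, 1.43, 0.72 and 1.26 in animals 36, 40, 44, 46 and 48. Of the 12, only 2 were higher in 5 of 5 animals. FOS had the list's largest fitted difference and is named after its values were seen. It was higher in 5 of 5 animals, by 1.12, 0.53, 4.18, 2.51 and 1.82 on the log2 CPM scale (fitted difference 2.00, SE 0.51, edgeR adjusted p = 0.365). EGR2 and EGR3 did not reach the count filter's level in every own uninjured muscle and passed with the help of repaired values. In the gel animals the list's mean of medians was 0.26. How the muscles of an animal were handled is not stated, and its part in these values was not tested. Among 15 core clock genes 7 were higher and 8 lower, and RORA, ARNTL and BHLHE41 were lower in 5 of 5 animals (-0.52, -0.40 and -0.44), while CIART was higher in 5 of 5 (0.38).

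UCP2 and KLF5, a mitochondrial carrier and a transcription factor that acts in adipocyte differentiation, were among the larger differences outside the adipocyte list and are named after their values were seen. UCP2 differed by 3.79, -0.70, 2.58, 2.24 and 2.33 on the log2 CPM scale in animals 36, 40, 44, 46 and 48 (fitted difference 2.16, SE 0.63, edgeR adjusted p = 0.365), and by a mean of 2.02 in the gel animals. UCP1, the uncoupling protein of brown fat, was at most 0.0833 CPM in any repaired muscle. Of the epithelial and gland markers only TSPAN8 and SCGB1D1 passed the count filter, and neither reached its level in every own uninjured muscle, so both were tested through their higher repaired values and are given as a description. Their fitted differences were 2.16 and 1.76, with higher values in 4 of 5 animals. Of the 6 markers under the filter, KRT5, KRT18 and EPCAM were at or below 0.0821 CPM in all of these libraries and KRT19 at or below 0.206 CPM. KRT8 was at most 1.08 CPM in repaired and 0.856 CPM in uninjured muscle, and CDH1 at most 1.23 and 1.48 CPM.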
